A study of Rattus norvegicus with 26 samples.

Results

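The complement genes C1r, C1s, Serping1, C2, Cfb, Cfi, C3 and C7 were followed in thoracic aortas from male SHR (spontaneously hypertensive rat), in which high blood pressure is inherited. The 8 genes were chosen by symbol, as components and inhibitors of the cascade other than the C1q chains and Cfd, and a probe was taken as a member when its accession mapped to one of them. Of 30367 probes outside controls, 8 were members: 1 each for C1r, C1s, Serping1, Cfb, Cfi and C3, and 2 for C2. C7, a subunit of the membrane pore that ends the cascade, was matched by no probe and was not analysed here. RNA of each aorta was read on its own 1-colour array, 26 in all. Rats had been dosed by mouth for 4 weeks with valsartan, which blocks the angiotensin II receptor (21.6 mg per kg, 6 arrays), with SXC (Songling Xuemaikang capsule, a herbal preparation) at a high dose (708.75 mg per kg, 6 arrays) or a low dose (236.25 mg per kg, 6 arrays), or with saline (7.5 mL per kg, 8 arrays). Valsartan is listed for 8 rats in the series text, of which 6 arrays were analysed here. All 4 groups carried the hypertension of the strain, no normotensive strain was analysed here, and the labels give no age. SXC was given earlier in the day than valsartan, so that drug and dosing hour cannot be told apart.

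Complement is a chain of blood proteins that marks and perforates cells. In the classical route, C1q binds a target, C1r activates C1s, and C1s cuts C4 and C2, whose fragments form an enzyme that cuts C3. In the alternative route, Cfb takes the part of C2 and Cfd that of C1s. Serping1, the C1 inhibitor, inactivates C1r and C1s, and Cfi, with cofactors, cuts the active fragments of C3 and C4. Most circulating complement protein is made in the liver, while fibroblasts, macrophages and fat cells of the vessel wall and its surroundings make part of the set locally.

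Levels are given as log2 of a probe's processed intensity relative to the 75th percentile of its array, so that 1 unit is a 2-fold difference. A probe counted as above background on an array where the scanner software flagged at least 0.5 of its spots so, and this held for 32.4 to 56.5% of probes on valsartan arrays, 28.7 to 79.3% on high-dose SXC arrays, 70.0 to 77.0% on low-dose SXC arrays and 67.3 to 76.2% on saline arrays. All saline arrays were scanned 82 days after the last array of a treated rat, and in those comparisons the scan cannot be told apart from the treatment. The 6 valsartan arrays and high-dose arrays 3 to 6 were scanned at a lower detector gain than the other 16. Saline arrays 1 and 5, 2 and 6, and 3 and 7 resembled each other (r = 0.713, 0.660 and 0.872 over probes after scan run means were subtracted, against -0.03 for arrays 4 and 8), and their independence was not tested. With these pairs averaged and arrays 4 and 8 left out, leaving saline as 3 averages, calls were lost for C2 with valsartan (adjusted p = 0.0664) and low-dose SXC (adjusted p = 0.0779), C1r with high-dose SXC (adjusted p = 0.151) and Cfi with low-dose SXC. In bulk tissue, fewer cells of a type and less RNA per cell cannot be told apart either. The 9 measured smooth muscle markers, which check the tissue, were above background on some or all arrays of every group, with a mean level of 2.58 to 3.06 on valsartan arrays, 2.79 to 3.18 on high-dose arrays, 2.90 to 3.41 on low-dose arrays and 1.93 to 3.64 on saline arrays.

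Cfb, C1s and Serping1 were lower and Cfi was higher with each of the 3 treatments than with saline. Among the genes that fell, Cfb changed most, by -4.03 on the log2 scale with valsartan, -3.53 with high-dose SXC and -2.72 with low-dose SXC. C3 passed the test in none of these comparisons, C1r passed in 1 and C2 in 2. Of the 7 genes measured, 1 was called higher and 4 lower in each comparison with saline, at an adjusted p under 0.05. Over the 23744 probes tested, the share called in either direction was 58.4% for valsartan against saline (33.2% higher, 25.2% lower), 57.1% for high-dose SXC against saline (35.7% higher, 21.4% lower) and 39.6% for low-dose SXC against saline (22.5% higher, 17.1% lower). The share of members called, 5 of 7 each time, therefore stands against a background in which a large part of all probes was called. The median change of the 7 genes was -1.24 with valsartan, -0.49 with high-dose SXC and -0.64 with low-dose SXC, beside 0.19, 0.25 and 0.09 over all probes tested. The valsartan median is the fitted value of C2, which was above background on no valsartan array and is 1 of the 4 called lower there, and without C2 the median of the other 6 was -0.82. The groups did not overlap for 4 of 7 genes with valsartan, 3 of 7 with high-dose SXC and 2 of 7 with low-dose SXC, against 30.6%, 29.1% and 31.0% of all probes tested. The valsartan count includes Cfi, which was above background on 4 of 6 arrays there. The 3 comparisons share the same saline arrays, so that their likeness is not independent. With another background correction (normexp) the members called were split 2 higher and 3 lower with valsartan and 2 higher and 4 lower with high-dose SXC. Normexp called 77% and 71.6% of all probes tested in the same comparisons.

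**Figure D1:**
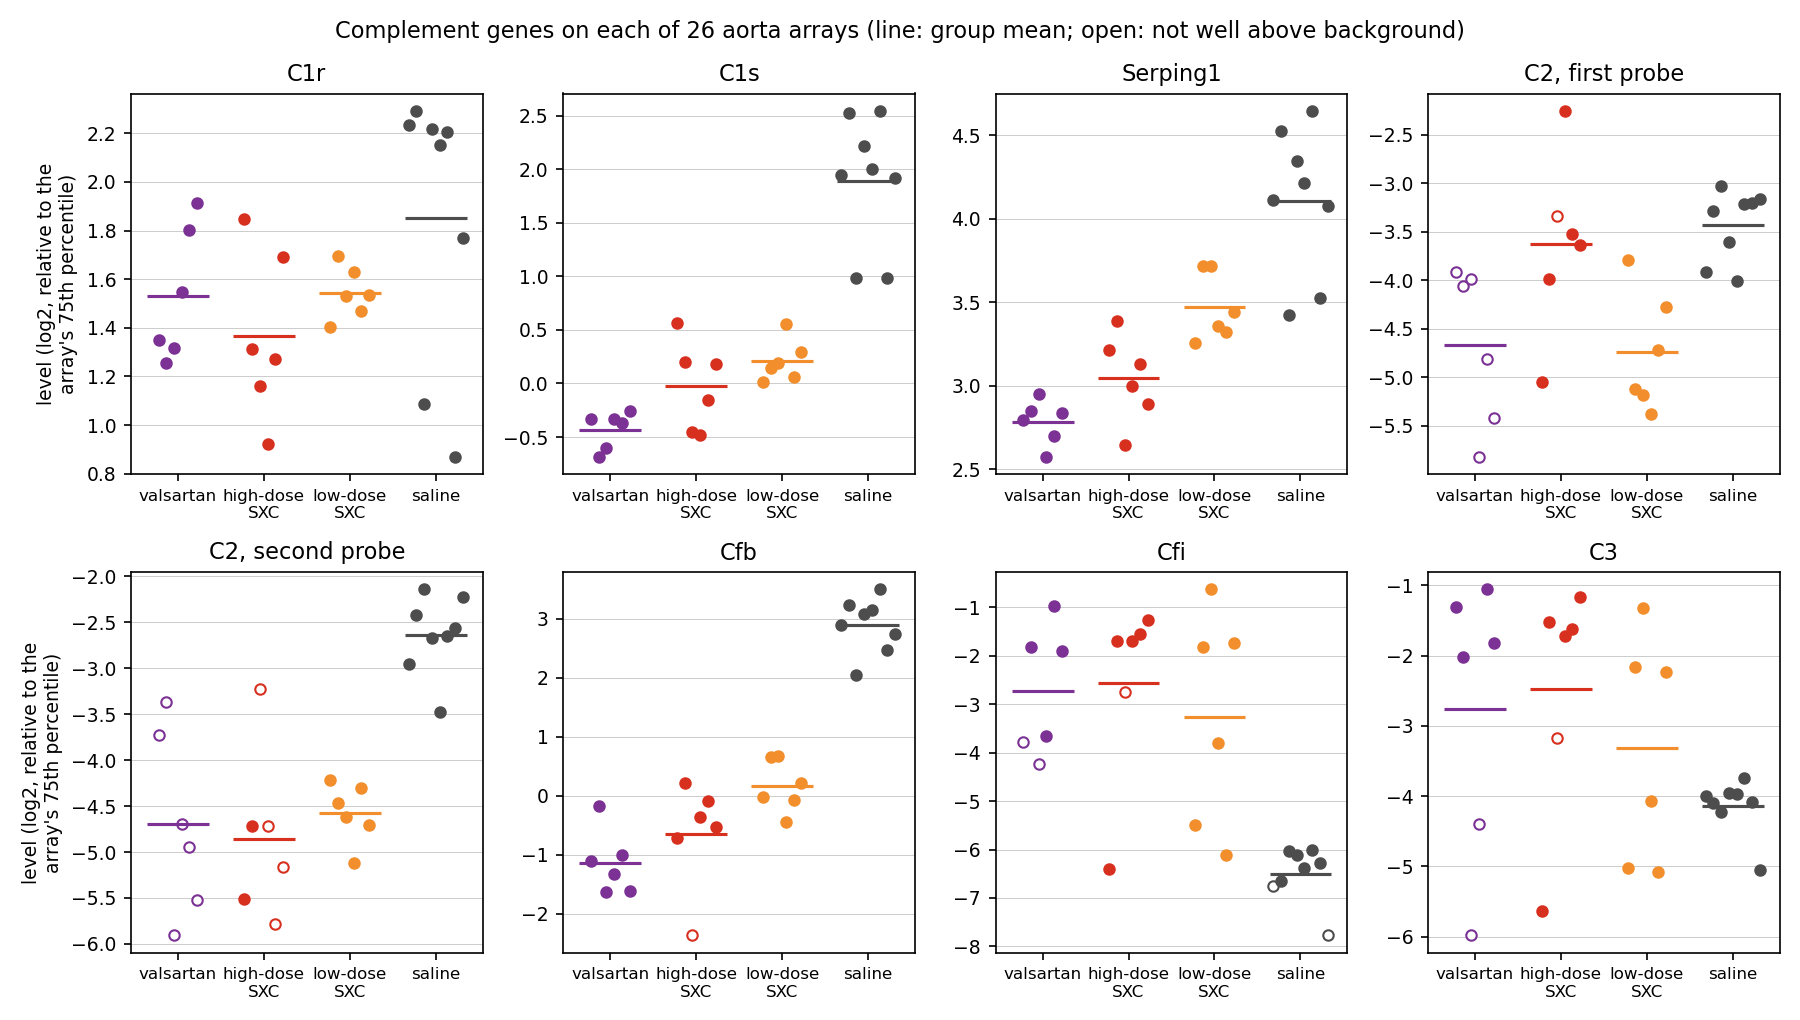
Level of each complement probe on every array (vertical axis, log2 relative to the array's 75th percentile) in the valsartan, high-dose SXC, low-dose SXC and saline groups. Points are arrays, lines are group means and open points were not well above background. C1s and Cfb lie below all 8 saline arrays on each of the 18 arrays of treated rats, while Cfi and C3 are scattered over several units within each treated group.

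Among the genes of the first step, C1s fell under every treatment, while C1r passed the test with high-dose SXC alone. C1s, the protease that cuts C4 and C2, lay between -0.69 and -0.26 on valsartan arrays (median -0.35), between -0.48 and 0.56 on high-dose arrays (median 0.02) and between 0.02 and 0.55 on low-dose arrays (median 0.17). On saline arrays it lay between 0.98 and 2.55 (median 1.97), above all 18 arrays of treated rats. The change was -2.32 ± 0.22 with valsartan (SE; adjusted p = 3.14e-09), -1.91 ± 0.22 with high-dose SXC (adjusted p = 6.71e-08) and -1.68 ± 0.22 with low-dose SXC (adjusted p = 1.04e-06), or 4.99-fold, 3.76-fold and 3.20-fold lower. In the order of group means, valsartan was lowest (-0.43), then high-dose SXC (-0.02), low-dose SXC (0.21) and saline (1.89), and the test told apart neither valsartan from high-dose SXC (adjusted p = 0.376) nor high-dose from low-dose SXC (adjusted p = 0.502).

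C1r, which activates C1s and whose gene stands next to that of C1s on chromosome 4, changed less. Its level was 1.25 to 1.91 on valsartan arrays (median 1.45), 0.92 to 1.85 on high-dose arrays (median 1.29), 1.40 to 1.70 on low-dose arrays (median 1.53) and 0.87 to 2.29 on saline arrays (median 2.18). None of the 18 arrays of treated rats lay outside the range of the saline arrays. Saline arrays 3 and 7, at 1.09 and 0.87, were the lowest of their group, and the other 6 lay at 1.77 or above. The change was -0.32 ± 0.20 with valsartan (adjusted p = 0.173), -0.49 ± 0.20 with high-dose SXC (adjusted p = 0.0427) and -0.31 ± 0.20 with low-dose SXC (adjusted p = 0.236). The high-dose call was lost without any 1 of 10 arrays (saline 1, 2, 4, 5, 6 or 8, or high-dose 2, 3, 4 or 5; adjusted p = 0.0505 to 0.116), with scan run as a random block (adjusted p = 0.129) and with detector gain as a block (-0.27, adjusted p = 0.530). Without saline arrays 3 and 7 together, a setting chosen after the data were seen, C1r passed also with valsartan (-0.61, adjusted p = 8.70e-04) and with low-dose SXC (-0.60, adjusted p = 0.00180).

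Serping1, the C1 inhibitor, was lower under each treatment. It lay between 2.57 and 2.95 on valsartan arrays (median 2.82), 2.65 and 3.38 on high-dose arrays (median 3.06), 3.26 and 3.72 on low-dose arrays (median 3.40) and 3.42 and 4.65 on saline arrays (median 4.16). All valsartan and high-dose arrays were below all saline arrays, whereas only 3 of the 6 low-dose arrays were. The change was -1.32 ± 0.16 with valsartan (2.50-fold lower, adjusted p = 1.65e-07), -1.06 ± 0.16 with high-dose SXC (2.09-fold lower, adjusted p = 4.08e-06) and -0.64 ± 0.16 with low-dose SXC (1.56-fold lower, adjusted p = 0.00233). A protease of the complex and its inhibitor, C1s and Serping1, were thus both lower in these aortas.

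**Figure D2:**
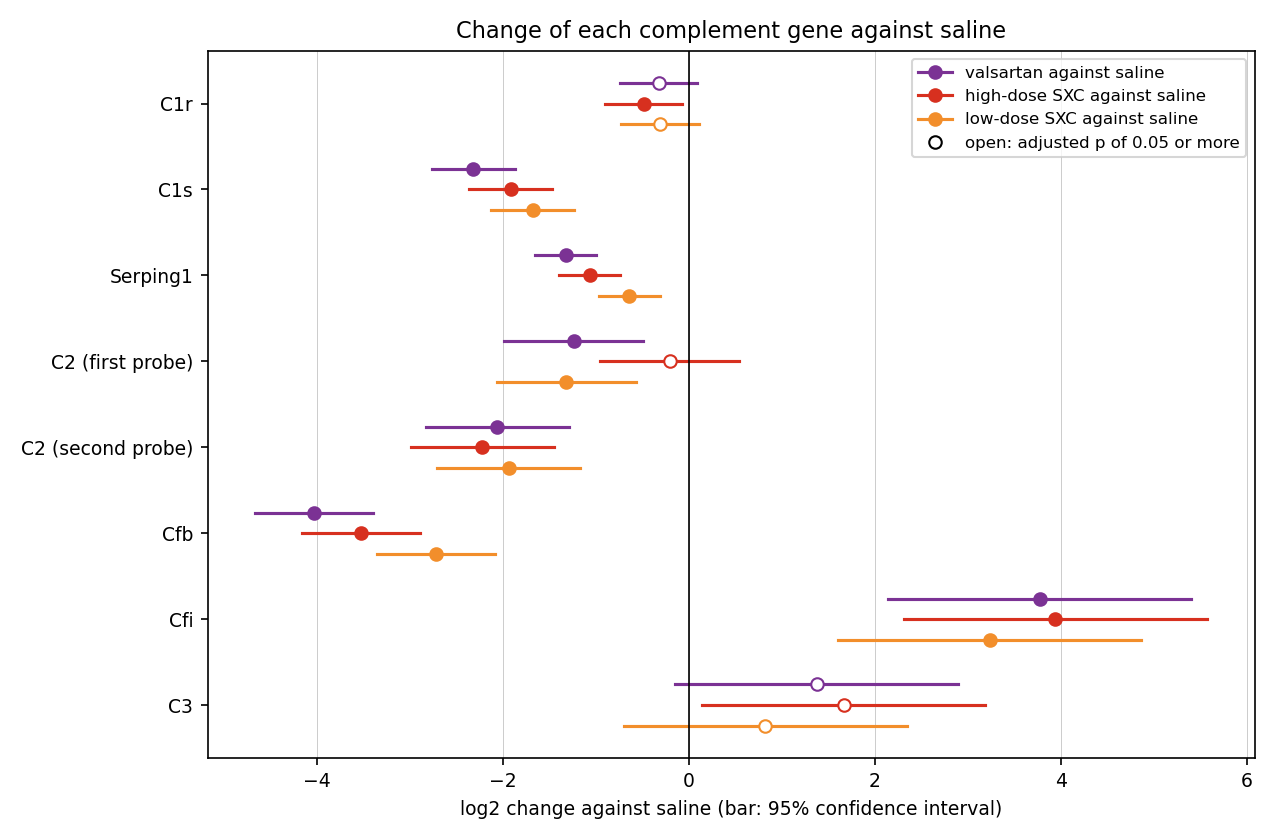
Change of each complement probe against saline (horizontal axis, log2) with its 95% confidence interval, for valsartan, high-dose SXC and low-dose SXC, filled where the adjusted p was under 0.05. Cfb has the intervals farthest below 0, Cfi lies above 0 throughout, and the 2 probes of C2 differ for high-dose SXC.

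Cfb and C2 are neighbouring genes on chromosome 20 with matching roles, each supplying the cutting part of the enzyme that acts on C3. Cfb, the alternative route protease, lay between -1.63 and -0.17 on valsartan arrays (median -1.21), -2.36 and 0.22 on high-dose arrays (median -0.44), -0.44 and 0.67 on low-dose arrays (median 0.10) and 2.05 and 3.50 on saline arrays (median 2.98). The lowest saline array stood above the highest array of every treated group. The -2.36, on high-dose array 3, was not above background. The change was -4.03 ± 0.31 with valsartan (16.3-fold lower, adjusted p = 1.29e-10), -3.53 ± 0.31 with high-dose SXC (11.5-fold lower, adjusted p = 1.26e-09) and -2.72 ± 0.31 with low-dose SXC (6.57-fold lower, adjusted p = 1.56e-07). Among the arrays scanned at the higher gain, high-dose arrays 1 and 2 averaged -0.25, against 2.89 on the 8 saline arrays, a difference of -3.14 for Cfb with no overlap. The same difference was -1.51 for C1s and -0.81 for Serping1, also with no overlap.

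C2 was measured by 2 probes that gave different answers for high-dose SXC. Their mean levels over the 26 arrays were nearly equal, at -4.06 and -4.07, and the first stands for C2 in the counts only through that small difference. On the first probe the level was -5.82 to -3.92 on valsartan arrays (median -4.43), -5.04 to -2.25 on high-dose arrays (median -3.58), -5.37 to -3.79 on low-dose arrays (median -4.92) and -4.00 to -3.03 on saline arrays (median -3.25). On the second probe it was -5.91 to -3.37 on valsartan arrays (median -4.82), -5.79 to -3.23 on high-dose arrays (median -4.94), -5.12 to -4.22 on low-dose arrays (median -4.54) and -3.48 to -2.14 on saline arrays (median -2.61). Neither probe was well above background on any valsartan array, and the second was so on 2 of 6 high-dose arrays, so that C2 was at the limit of detection there. High-dose SXC gave a change of -0.20 ± 0.36 (adjusted p = 0.650) on the first probe and -2.22 ± 0.37 (adjusted p = 1.74e-05) on the second. The first probe passed with quantile normalisation (-1.30, adjusted p = 0.0315) and with the authors' deposited values (-1.29, adjusted p = 0.0177). The mean over the 2 probes passed as well (-1.21, adjusted p = 0.00214). Low-dose SXC, with both probes above background on all 6 arrays, gave -1.32 ± 0.36 (adjusted p = 0.00507) and -1.94 ± 0.37 (adjusted p = 1.68e-04). With valsartan the fit gave -1.24 ± 0.36 (adjusted p = 0.00515) and -2.06 ± 0.37 (adjusted p = 4.41e-05). Against the detection floor of the valsartan arrays, only the second probe allowed a bound, at least 1.40-fold lower than with saline. On the first probe, normexp background correction turned the valsartan difference to 0.37 (adjusted p = 0.155). The low-dose call was lost with quantile normalisation (-1.27, adjusted p = 0.0556), normexp (-0.48, adjusted p = 0.110) and scan run as a random block (-1.11, adjusted p = 0.0632).

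Cfi and C3 behaved unlike the genes above. Cfi, the protease that ends the activity of C3 and C4 fragments, was near the detection limit with saline and spread widely in every treated group. It lay between -4.23 and -0.96 on valsartan arrays (median -2.79), -6.39 and -1.26 on high-dose arrays (median -1.70), -6.11 and -0.63 on low-dose arrays (median -2.81) and -7.77 and -6.01 on saline arrays (median -6.34). Of the arrays of treated rats, 16 of 18 were above every saline array. The exceptions were high-dose array 1 (-6.39) and low-dose array 5 (-6.11). Among the 16, valsartan arrays 1 (-3.77) and 3 (-4.23) and high-dose array 3 (-2.74) were not above background. How far they exceeded saline is therefore uncertain. Cfi was above background on 4 of 6 valsartan, 5 of 6 high-dose, 6 of 6 low-dose and 6 of 8 saline arrays. The change was 3.77 ± 0.79 with valsartan (13.7-fold higher, adjusted p = 2.48e-04), 3.94 ± 0.79 with high-dose SXC (15.4-fold higher, adjusted p = 1.56e-04) and 3.24 ± 0.79 with low-dose SXC (9.42-fold higher, adjusted p = 0.00192). The high-dose call was lost with detector gain as a block (2.45, adjusted p = 0.103). With saline as 3 averages of its paired arrays, the low-dose call was lost too (3.09, adjusted p = 0.0509).

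C3, on whose cutting all routes converge, lay between -5.98 and -1.06 on valsartan arrays (median -1.92), -5.64 and -1.17 on high-dose arrays (median -1.67), -5.08 and -1.33 on low-dose arrays (median -3.15) and -5.05 and -3.74 on saline arrays (median -4.04). Arrays of treated rats stood on both sides of the saline range, 12 of 18 above it and 3 below. C3 was not above background on valsartan arrays 3 and 4 and on high-dose array 3. The change was 1.38 ± 0.74 with valsartan (95% interval -0.15 to 2.90, adjusted p = 0.113), 1.67 ± 0.74 with high-dose SXC (0.14 to 3.19, adjusted p = 0.0573) and 0.83 ± 0.74 with low-dose SXC (-0.70 to 2.35, adjusted p = 0.401). C3 passed without high-dose array 1 (2.30, adjusted p = 0.00639) and without valsartan array 3 (2.02, adjusted p = 0.0155), the lowest arrays of their groups. With all arrays kept, the high-dose change of 1.67 passed with only the 2 groups compared (adjusted p = 0.0188). It also passed, narrowly, with no filter on dim probes (adjusted p = 0.0497).

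The levels of Cfi and C3 moved with those of liver genes from array to array. The mean level of the 10 measured hepatocyte markers was -4.01 to -0.21 on valsartan arrays, -5.21 to -0.91 on high-dose arrays, -4.85 to -0.17 on low-dose arrays and -5.37 to -3.86 on saline arrays. After each group's mean was subtracted, it correlated over the 26 arrays with Cfi at r = 0.98 and with C3 at r = 0.93, with arrays of a group sharing depth and scan time. Within groups, r for Cfi was 0.964 with valsartan, 0.991 with high-dose SXC, 0.998 with low-dose SXC and 0.867 with saline. For C3 it was 0.865, 0.995, 0.990 and 0.736 in the same groups. The saline values rest largely on saline array 8, lowest in the hepatocyte mean (-5.37), Cfi (-7.77, not above background) and C3 (-5.05). The other saline arrays lay between -4.66 and -3.86 in the hepatocyte mean and between -4.22 and -3.74 for C3. A value of r without array 8 was not computed. Of 18 arrays of treated rats, 4 had a hepatocyte mean inside the saline range (valsartan 3, high-dose 1 and low-dose 1 and 5). On these 4, Cfi lay between -6.39 and -4.23 and C3 between -5.98 and -5.02. On the other 14, Cfi lay between -3.80 and -0.63 and C3 between -4.40 and -1.06. Of the 10 markers, 6 were called higher and 0 lower with valsartan, 7 and 0 with high-dose SXC and 5 and 0 with low-dose SXC, with medians of 2.19, 2.19 and 1.62. The numbers higher were 3, 4 and 4 with quantile normalisation and with the authors' deposited values, and 9, 9 and 5 with normexp. Ttr, the thyroid hormone carrier transthyretin, changed by 4.72 ± 0.95 with valsartan (adjusted p = 1.55e-04), 5.04 ± 0.95 with high-dose SXC (adjusted p = 7.36e-05) and 5.07 ± 0.95 with low-dose SXC (adjusted p = 1.26e-04). Fga, a fibrinogen chain, was above background on no saline array and was at least 9.37-fold higher with valsartan, at least 8.46-fold higher with high-dose SXC and at least 5.69-fold higher with low-dose SXC (adjusted p = 2.27e-04, 3.38e-04 and 0.00241). Apoa1 was above background on 0 of 6 valsartan arrays. The part of liver RNA in the Cfi and C3 values was not tested.

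**Figure D3:**
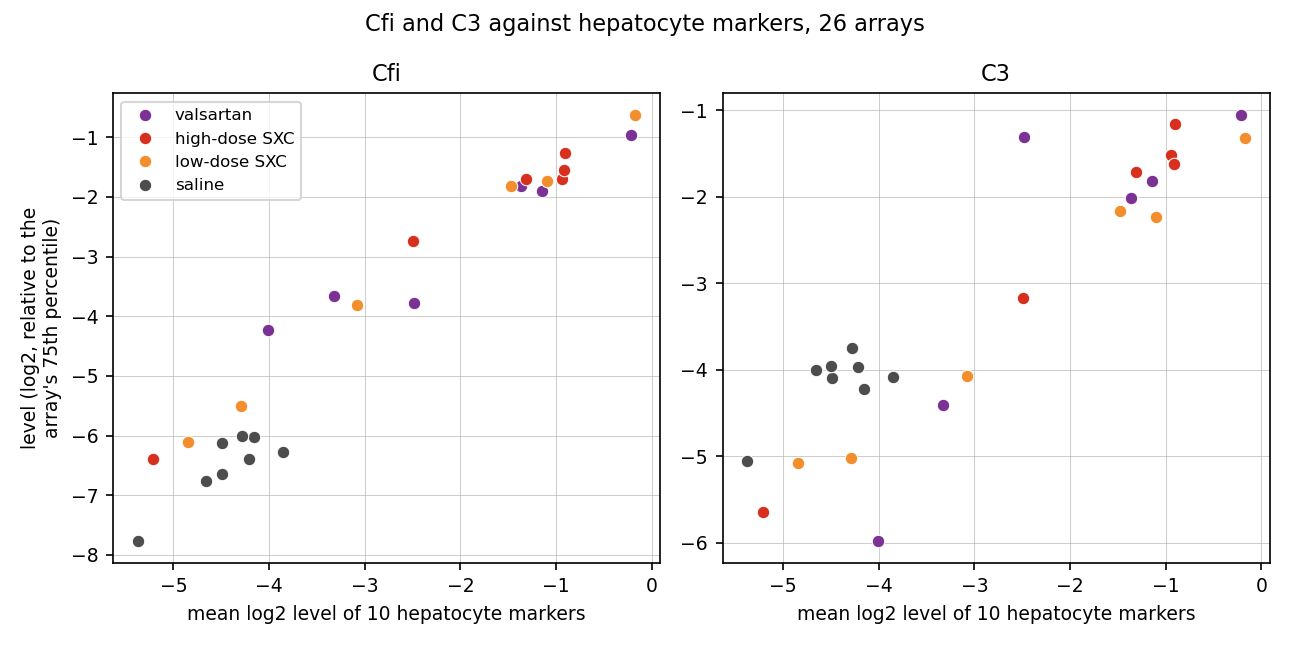
Level of Cfi and of C3 (vertical axes, log2 relative to the array's 75th percentile) against the mean level of 10 hepatocyte markers (horizontal axis, same scale) on 26 arrays coloured by group. Arrays of all 3 treated groups lie along 1 rising band in the plot of Cfi. The saline arrays form its lower end with high-dose array 1 and low-dose array 5. Low-dose array 1 (-5.50) and valsartan array 3 (-4.23, not above background) also had a hepatocyte mean inside the saline range. Both lie above all saline arrays for Cfi.

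The stretches before the starts of C3 and Cfi are shown because these 2 members moved together from array to array (r = 0.87 over 26 arrays, group means subtracted). Each is the 250 bases before the gene's start in RefSeq's GRCr8 table, C3 from chr9:2201340-2201589 on the minus strand and Cfi from chr2:221063066-221063315 on the plus strand. Capitals mark matches to a motif.
C3: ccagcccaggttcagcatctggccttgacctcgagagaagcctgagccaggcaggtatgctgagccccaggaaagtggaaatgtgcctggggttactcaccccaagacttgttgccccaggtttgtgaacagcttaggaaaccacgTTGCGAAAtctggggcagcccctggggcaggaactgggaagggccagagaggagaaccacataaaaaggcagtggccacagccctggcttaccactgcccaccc
Cfi: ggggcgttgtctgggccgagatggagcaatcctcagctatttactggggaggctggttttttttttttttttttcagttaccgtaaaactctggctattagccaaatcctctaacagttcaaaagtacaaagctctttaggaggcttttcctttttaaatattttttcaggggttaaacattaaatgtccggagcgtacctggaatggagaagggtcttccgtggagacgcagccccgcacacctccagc
The motifs searched on both strands were TTCNNNGAA (interferon-gamma activated site), TTGCNNAA (C/EBP), the core promoter letters TATAAA, the interferon-stimulated element and the kappa B site. C3 held 1 match, to the C/EBP letters at -104 to -97 from the start, overlapping no other motif. The Cfi stretch held none of the 5 sets of letters. C1r, the only other member in the table, held 1 match to the C/EBP letters at -83 to -76 on the opposite strand. Of 33469 windows of 300 bases in the table, 10.6% hold the C/EBP letters, 8.87% the interferon-gamma activated site, 3.92% the interferon-stimulated element, 5.37% kappa B and 14.2% TATAAA.

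Set against each other, the treatments differed for Cfb, Serping1 and C1s between valsartan and low-dose SXC. Valsartan against low-dose SXC gave -1.31 ± 0.33 for Cfb (2.48-fold lower, adjusted p = 0.00553), -0.68 ± 0.17 for Serping1 (1.61-fold lower, adjusted p = 0.00552) and -0.64 ± 0.23 for C1s (1.56-fold lower, adjusted p = 0.0442). The 6 arrays of each group did not overlap for Serping1 and C1s, 2 of 7 members against 14.8% of all probes tested. Of all probes tested, 25.2% were called in this comparison and 11.5% were called lower and 13.6% higher, beside 3 of 7 members lower and 0 higher. The C1s call was lost without any 1 of 11 arrays (low-dose 2 to 6 or any valsartan array; adjusted p = 0.0501 to 0.0993). With scan run as a random block all 3 were lost, Cfb at -1.22 (adjusted p = 0.0654), Serping1 at -0.64 (adjusted p = 0.0720) and C1s at -0.61 (adjusted p = 0.211). Valsartan and low-dose arrays shared no scan day and no detector gain, so that batch and treatment cannot be told apart between them.

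High-dose against low-dose SXC gave 1 call among 7 members, the first C2 probe at 1.11 ± 0.39 (adjusted p = 0.0403), where 22.2% of all probes were called (16.8% higher, 5.41% lower). The second C2 probe gave -0.28 ± 0.40 (adjusted p = 0.650). C2 was lower, at -0.48, on the first scan day (2 high-dose and 2 low-dose arrays), and the call was lost without any 1 of 8 arrays (low-dose 2 to 5 or high-dose 3 to 6; adjusted p = 0.0557 to 0.132). Cfb was -0.81 ± 0.33 (95% interval -1.49 to -0.13, adjusted p = 0.0778) and Serping1 -0.42 ± 0.17 (-0.78 to -0.07, adjusted p = 0.0758) with the high dose against the low dose, neither passing the test. Without high-dose array 2 both passed, at -0.98 (adjusted p = 0.0317) and -0.49 (adjusted p = 0.0425), and on the first scan day they differed by -0.35 and -0.05 with overlapping arrays. For C1s the difference was -0.23 (-0.71 to 0.24), for C1r -0.18 (-0.62 to 0.27), for Cfi 0.71 (-1.04 to 2.45) and for C3 0.84 (-0.79 to 2.47), each with an interval that holds 0. Valsartan against high-dose SXC gave 0 calls among 7 members, where 1.37% of all probes were called (0.265% higher, 1.1% lower), and at an unadjusted p under 0.05 there was 1, the first C2 probe (-1.04 ± 0.39, adjusted p = 0.169). Its intervals were -1.18 to 0.17 for Cfb, -0.88 to 0.07 for C1s, -0.61 to 0.09 for Serping1, -0.28 to 0.61 for C1r, -1.92 to 1.58 for Cfi and -1.92 to 1.34 for C3. On the 10 arrays scanned at the lower gain, valsartan minus high-dose SXC was -0.31 for Cfb, -0.20 for C1s and -0.13 for Serping1, with overlap.

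The C1q chains, C4a and Cfd, partners of the members, were lower with each treatment, while the wider list of complement genes moved both ways. Of 29 other complement genes tested of 39 listed, 8 were higher and 13 lower with valsartan and 6 higher and 16 lower with high-dose SXC. With low-dose SXC 4 were higher and 17 lower. Medians were -0.60, -1.06 and -1.19 with valsartan, high-dose and low-dose SXC, beside the medians over all probes given above. Above background on no array were C1qc, Mbl2, Fcna, Cd46 and C5ar2 with valsartan. Masp2, C5ar2 and Itgam were so with both SXC doses, and Cfp with the high dose alone. Any calls of theirs in those groups rest on fitted values at the detection limit. For valsartan, quantile normalisation gave 2 higher and 16 lower (median -1.26) and normexp background correction 11 higher and 13 lower, with a median of 0.25, so that the sign of the valsartan median depends on the background correction. For high-dose SXC, normexp gave 9 higher and 13 lower with a median of -0.07, and quantile normalisation gave 2 higher and 16 lower with low-dose SXC. The chains of C1q, which binds C1r and C1s, fell under each treatment. C1qa averaged -2.09 ± 0.40 with valsartan, -1.55 ± 0.68 with high-dose SXC, -1.03 ± 0.29 with low-dose SXC (SD, n = 6 each) and 1.16 ± 0.59 with saline (SD, n = 8). Its change was -3.25 ± 0.27 with valsartan, -2.71 ± 0.27 with high-dose SXC and -2.19 ± 0.27 with low-dose SXC (SE; adjusted p = 4.79e-10, 9.39e-09 and 5.18e-07). C1qb changed by -3.06 ± 0.22, -2.52 ± 0.22 and -2.03 ± 0.22 in the same comparisons. C1qc, above background on no valsartan array, was at least 3.25-fold lower with valsartan, and changed by -1.95 ± 0.24 with high-dose SXC and -2.09 ± 0.24 with low-dose SXC.

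C4a, the substrate of C1s, averaged 0.41 ± 0.21 with valsartan, 0.87 ± 0.35 with high-dose SXC, 1.33 ± 0.38 with low-dose SXC and 3.67 ± 0.44 with saline (SD). It changed by -3.26 ± 0.19, -2.80 ± 0.19 and -2.34 ± 0.19 (SE; adjusted p = 2.66e-12, 3.85e-11 and 1.13e-09), with the reservation that C4a has a near-identical copy, C4b, which a probe may also read. Cfd, which cuts Cfb and is made by fat cells, changed by -3.47 ± 0.49 with valsartan, -3.08 ± 0.49 with high-dose SXC and -3.00 ± 0.49 with low-dose SXC (adjusted p = 1.69e-06, 9.13e-06 and 2.54e-05). Itgb2, the shared chain of the complement receptors of leukocytes, changed by -3.27 ± 0.23, -2.70 ± 0.23 and -2.42 ± 0.23 in the same order. It was above background on 1 of 6 valsartan, 4 of 6 high-dose and 6 of 6 low-dose arrays. The lectin route receptor Fcna was above background on no valsartan array, was at least 2.12-fold lower there, and changed by -3.40 ± 0.40 with high-dose SXC and -3.82 ± 0.40 with low-dose SXC. It was above background on 1 of 6 high-dose and 5 of 6 low-dose arrays, so that its high-dose value lies near the detection limit. C5ar2, a receptor for a fragment of C5, was above background on no array of treated rats and was at least 3.64-fold lower with low-dose SXC. Where a group was above background on no array, the plotted change of such a gene is the fitted value and not a bound.

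C9 and Mbl2 were among the genes with the largest changes upward. C9, which forms the wall of the terminal pore, changed by 3.62 ± 0.66 with valsartan (adjusted p = 5.58e-05), 3.77 ± 0.66 with high-dose SXC (adjusted p = 3.60e-05) and 2.83 ± 0.70 with low-dose SXC (adjusted p = 0.00215, 5 arrays with a value). C9 was above background on 3 of 6 valsartan, 5 of 6 high-dose, 5 of 5 low-dose and 4 of 8 saline arrays. Mbl2, a lectin that starts the lectin route, changed by 3.38 ± 0.92 with high-dose SXC (adjusted p = 0.00290), but was above background on 2 of 6 high-dose and 2 of 8 saline arrays. C6 and C8b, pore subunits, and C4bpa and C4bpb, chains of an inhibitor of C4, are named after their values were seen. C6 was lower (-3.05, -2.15 and -2.20 with valsartan, high-dose SXC and low-dose SXC), and C4bpa passed in none (adjusted p = 0.491, 0.109 and 0.303). C6 was above background on 3 of 6 valsartan and 5 of 6 high-dose arrays. C8b changed by 1.76 ± 0.45, 2.54 ± 0.45 and 1.20 ± 0.45 and C4bpb by 2.72 ± 0.86, 2.68 ± 0.86 and 2.42 ± 0.86 with valsartan, high-dose SXC and low-dose SXC. C4bpb passed in none of the 3 under quantile normalisation, where C8b passed only with high-dose SXC. On valsartan arrays C8b was above background on 2 of 6 and C4bpb on 4 of 6.

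**Figure D4:**
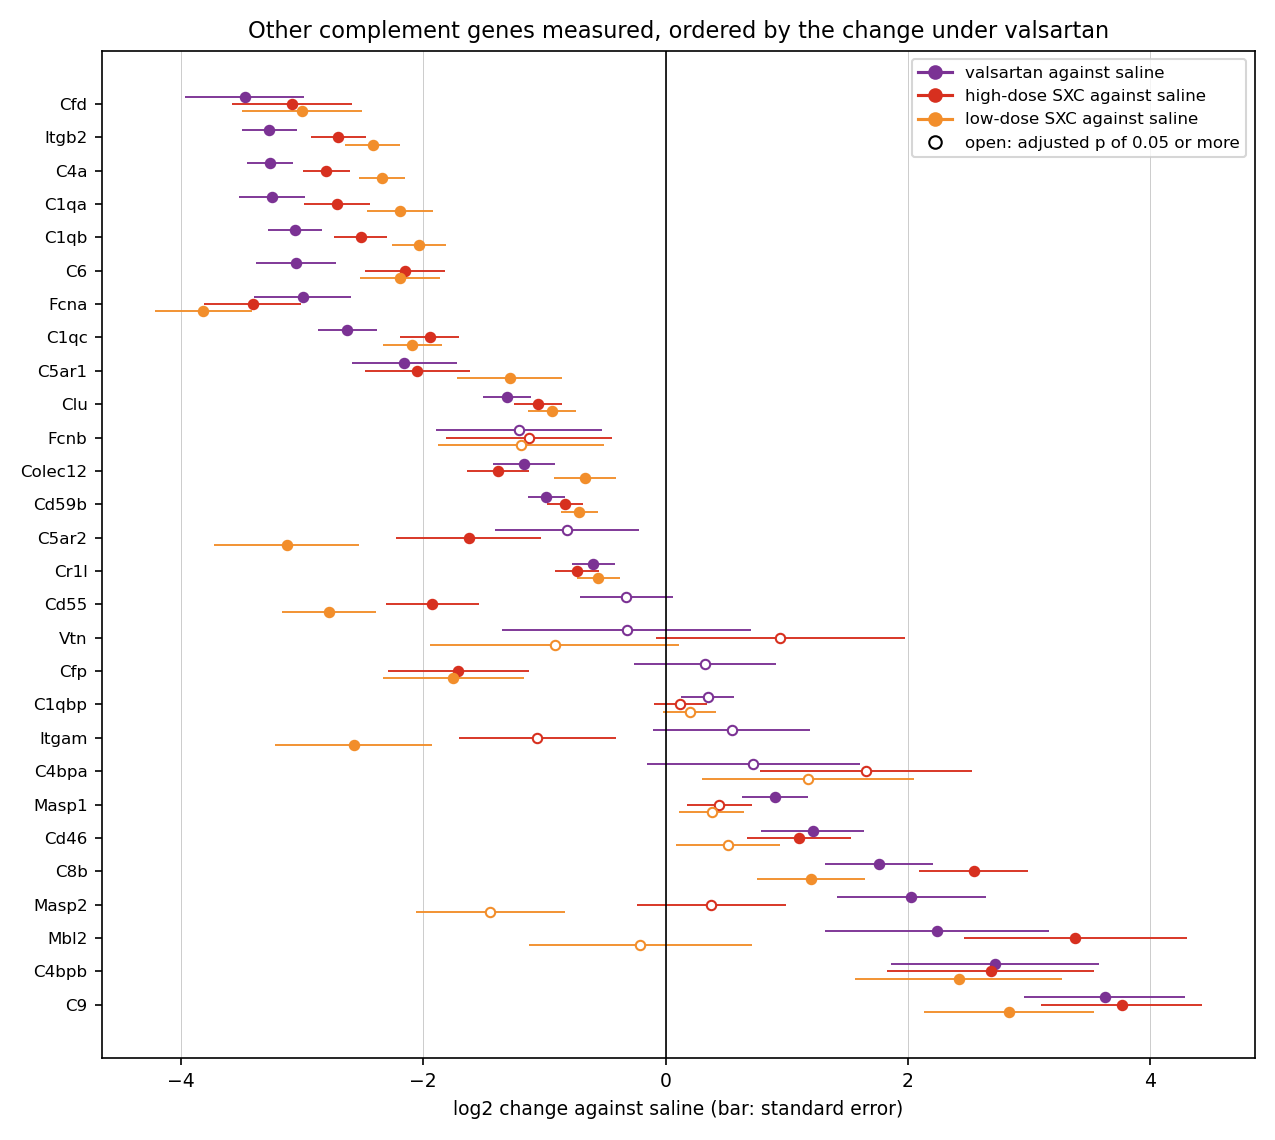
Change against saline (horizontal axis, log2, bars are standard errors) of other complement genes tested, for valsartan, high-dose SXC and low-dose SXC, filled where the adjusted p was under 0.05. Ordered by the change with valsartan, Cfd, Itgb2, C4a, C1qa and C1qb lie at the low end and C9 and C4bpb at the high end.

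Genes of the cytokine signals that switch on C3, Cfb, C1s and Serping1 in many cell types were mostly lower. Of 18 tested of 20 listed, 1 was higher and 10 lower with valsartan, 1 and 11 with high-dose SXC and 1 and 10 with low-dose SXC, with medians of -1.17, -0.93 and -0.98. With normexp background correction the split was 3 higher and 9 lower with valsartan and 3 higher and 10 lower with high-dose SXC. Il6, Il1b and Tnf were above background on no valsartan array, and Tnf on no high-dose array. Il6st, the signalling chain of the interleukin-6 receptor, changed by -1.54 ± 0.10 with valsartan, -1.59 ± 0.10 with high-dose SXC and -1.50 ± 0.10 with low-dose SXC (adjusted p = 1.11e-11, 1.13e-11 and 5.27e-11). Ifngr1, a chain of the interferon-gamma receptor, changed by -1.75 ± 0.14, -1.45 ± 0.14 and -1.53 ± 0.14 (adjusted p = 3.35e-10, 7.42e-09 and 7.90e-09). Targets of interferon-gamma moved both ways, 5 higher and 4 lower of 15 with valsartan, 5 and 4 with high-dose SXC and 3 and 4 with low-dose SXC, with medians of 0.35, 0.25 and -0.14. Quantile normalisation gave 3 higher and 4 lower with valsartan and with high-dose SXC, and normexp gave 8 and 3. Irf8, Ciita and Socs1 were above background on no valsartan array. Of these, Ciita was called higher with valsartan (1.01, adjusted p = 0.0349), and stood at -0.61 with quantile normalisation (adjusted p = 0.117). Gbp5, a guanylate-binding protein, rose by 1.70 ± 0.14 with valsartan, 1.60 ± 0.14 with high-dose SXC and 1.09 ± 0.14 with low-dose SXC, while Gbp2, of the same family, changed by -1.44 ± 0.18 with valsartan and -1.53 ± 0.18 with high-dose SXC.

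Markers of cell types that make complement also moved between the groups. Of 17 macrophage markers, which include the C1q chains, 1 was higher and 14 lower with valsartan, 1 and 14 with high-dose SXC and 1 and 13 with low-dose SXC. Their mean level was -2.45 to -1.89 on valsartan arrays, -1.94 to -1.71 on high-dose arrays, -1.91 to -1.49 on low-dose arrays and -0.74 to 0.33 on saline arrays, and Cd163, Mrc1, Msr1 and C1qc were above background on no valsartan array. Of 13 fibroblast markers, 1 was higher and 8 lower with valsartan, 1 and 6 with high-dose SXC and 1 and 4 with low-dose SXC, and with quantile normalisation 0 were higher and 8 lower with valsartan and with high-dose SXC. Dcn, the matrix protein decorin, changed by -2.28 ± 0.23, -2.64 ± 0.23 and -2.38 ± 0.23 with the 3 treatments. The fibroblast mean level was 0.55 to 1.05 on valsartan arrays, 0.69 to 1.01 on high-dose arrays, 0.97 to 1.24 on low-dose arrays and 0.85 to 2.45 on saline arrays. Of 15 white fat markers, which include Cfd, 0 were higher and 12 lower with valsartan, 0 and 9 with high-dose SXC and 0 and 11 with low-dose SXC, at a mean level of -1.12 to -0.56, -1.31 to 0.48 and -1.25 to 0.40, against -0.54 to 3.48 with saline. Of 10 endothelial markers 1 was higher and 6 lower with valsartan, 2 and 7 with high-dose SXC and 1 and 7 with low-dose SXC, and of 7 red cell genes 0 were higher and 6, 6 and 7 lower. With normexp the endothelial split was 3 and 3 with valsartan and 2 and 4 with high-dose SXC. The endothelial markers Cldn5, Tek, Esam, Nos3 and Emcn were above background on no valsartan array, and Tek and Tie1 on no high-dose array. Nor were the fibroblast markers Cd34 and Ly6al, the fat markers Lep and Cidec or the red cell gene Slc4a1 on any valsartan array. Mrc1 was above background on no high-dose array and the red cell gene Hemgn on no low-dose array. The part of these cell types in the lower C1s, Serping1, Cfb and C2 was not tested.

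From array to array, C1r, C1s and Serping1 moved with the fibroblast markers among saline arrays, though not with these alone. Among treated rats r was lower or opposite. Within the saline group the correlation with the fibroblast mean over 8 arrays was 0.961 for C1r, 0.995 for C1s and 0.980 for Serping1, with saline arrays 3 and 7 lowest in all 3. Without those 2 arrays r was 0.613, 0.992 and 0.965 over 6 arrays. Arrays 3 and 7 were also highest in the white fat mean (3.48 and 3.42) and lowest in the smooth muscle (2.35 and 1.93) and red cell (0.99 and 0.97) means. They were lowest in the macrophage mean too (-0.74 and -0.62). Saline arrays 2 and 6 were highest for C1s, Serping1 and the fibroblast mean. The same arrays were highest in the red cell (4.15 and 4.24) and macrophage (0.13 and 0.33) means. The link among saline arrays was therefore not particular to fibroblast markers. Over all 26 arrays with group means subtracted, the 3 genes correlated with the smooth muscle mean at 0.67 to 0.75 and with the white fat mean at -0.69 to -0.46. Within the treated groups of 6 arrays, r was between -0.34 and 0.41 for C1r, 0.18 and 0.23 for C1s, and -0.93 and 0.34 for Serping1. Cfb was also lowest on saline arrays 3 and 7, at 2.05 and 2.48. Without those 2 arrays the changes of Cfb, C1s and Serping1 against saline kept their direction and calls.

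**Figure D5:**
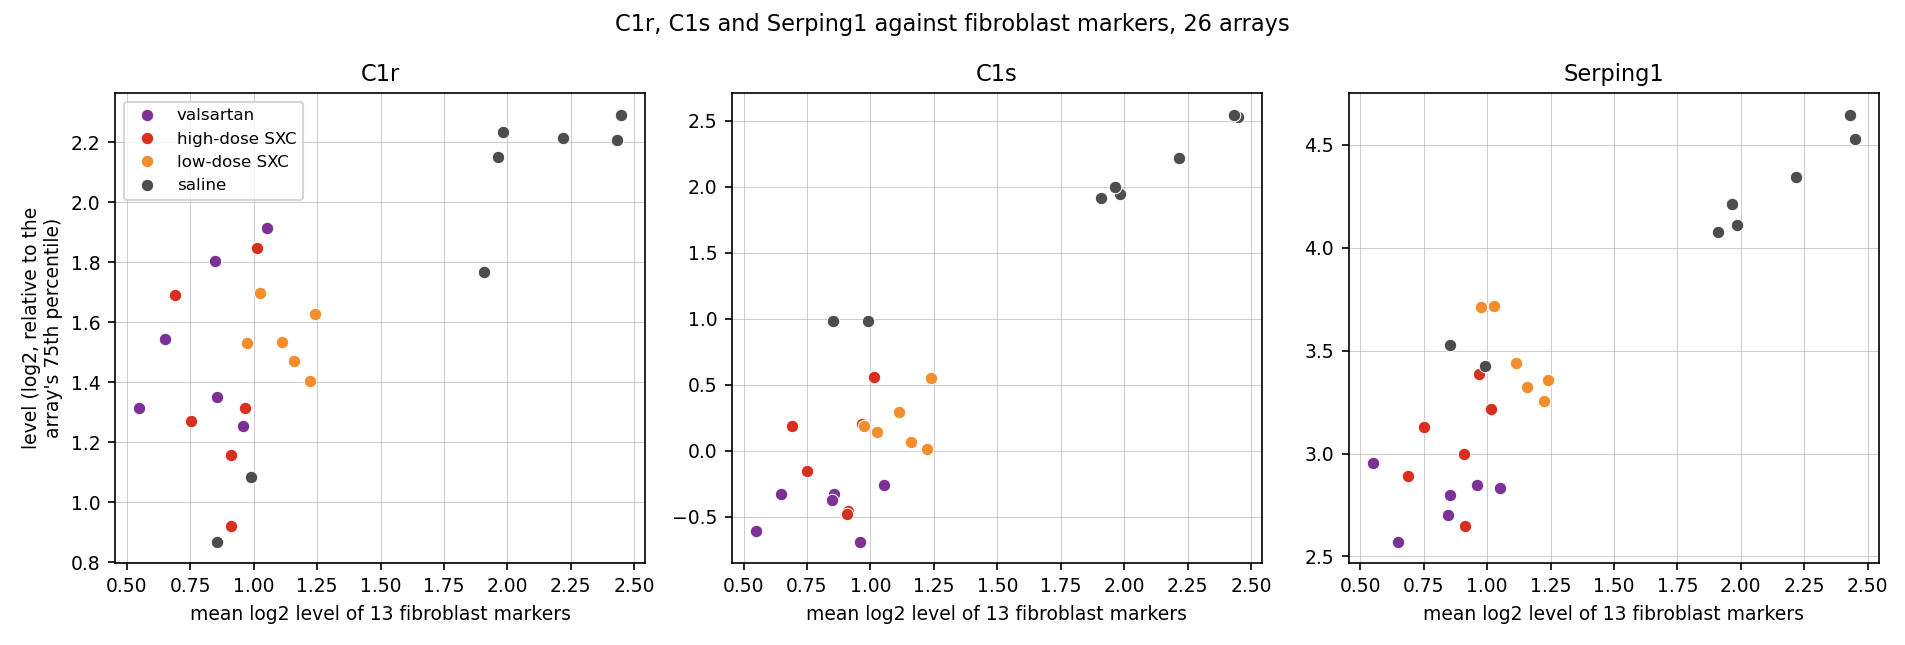
Level of C1r, C1s and Serping1 (vertical axes, log2 relative to the array's 75th percentile) against the mean level of 13 fibroblast markers (horizontal axis, same scale) on 26 arrays coloured by group. Saline arrays rise along a line from arrays 3 and 7 at its lower end, and arrays of treated rats lie in a cloud at a fibroblast mean of 0.55 to 1.24.

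Over all 26 arrays with group means subtracted, C1r and C1s correlated at r = 0.89, C3 and Cfi at 0.87, and C1s and Serping1 at 0.78, as a description of arrays that share groups and scan times. The 3 genes most like each member were sought among 4202 genes above background on all 26 arrays. For C1r they were Htra1, Fbn1 and Ptgfrn (r = 0.98, 0.98 and 0.96), of which Fbn1 encodes the matrix protein fibrillin. For C1s they were Serpinf1, Cldnd1 and Nap1l1 (0.95, 0.92 and 0.92), and for Serping1 Man2b1, Filip1 and Spock2 (0.92, 0.92 and 0.90). Cfb came closest to Slc22a18, Tf and Hsp90aa1 (0.80, 0.80 and 0.77). C3 came closest to Tf, Alb and Flcn (0.82, 0.75 and 0.68) and Cfi to Tf, Alb and Bhmt (0.78, 0.78 and 0.76), where Tf, Alb and Bhmt encode transferrin, albumin and a methyltransferase abundant in liver. For C2, a dim probe, they were Or4f61b, Krtap10-10l2 and Cdnf (0.88, 0.87 and 0.85).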

How the data were processed

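Total RNA of each aorta was extracted with TRIzol and labelled with Cy3 on 1-colour Agilent rat arrays, 1 per rat, per the labels' protocols. Intensity values were deposited as Agilent Feature Extraction 11.0.1.1 wrote them, per the file headers and the submitters' processing notes: background-subtracted and detrended within each array, not scaled between arrays, with a flag of 0 or 1 per spot for brightness above background, saturation and outliers. The authors' deposited table of log2 values, whose normalisation no source used here states, served as an alternative. Its lowest correlation with the matching array was 0.964.

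Computed here, the level of a probe was the mean log2 intensity of its spots, outlier spots left out (275 to 1467 per array), minus log2 of the array's 75th percentile. A probe was tested if above background on at least 6 of 26 arrays, which kept 23744 of 30367. Each gene was represented by its brightest probe on average. Accessions were named through RefSeq's gene table: 18005 probes had 1 symbol and 12362 none. One fit in R 4.3.3 with limma 3.58.1 (lmFit, eBayes with trend) over all 26 arrays, with no covariate, gave 6 two-sided comparisons, Benjamini-Hochberg adjusted over all probes tested, with calls at an adjusted p under 0.05. A group not above background on any array has only a bound: the brighter group's mean was set against the dimmer group's mean of, per array, the lowest signal of any probe above background, or the dim probe's own signal where that was higher. The fit was tested on simulated data with known changes. Precision is limited by how many arrays there were.

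The labels' replicate numbers did not pair the rats: same-numbered arrays of different groups correlated at -0.37 to 0.28 over 36 pairs (median -0.02), after group means were subtracted. P-values measure the spread between arrays, taken as 1 rat each.

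Members and gene lists were chosen with earlier results of these data known. Named genes were all members, their partners C1q, C4a and Cfd, for the other complement list the 4 called genes with the largest change in each comparison with saline, for other lists up to 3 with the smallest p, and for each member the 3 most correlated genes; C8b and C4bpb fall outside this rule. Alternatives were quantile normalisation, normexp background correction with an offset of 50, the authors' table, other filters and probe rules, blocks for scan run, scan day, detector gain and replicate number, and leaving out arrays. Scan runs were taken from the scan times in the headers. One gene of the other complement list is counted but not reported by name here.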

Additional observations from a re-analysis of the deposited data

Results flagged for a closer look

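Of 28 combinations of member and group examined, 4 held an array far from the others of its group, where chance gives about 1 in 20. Cfb on high-dose SXC array 3 stood at -2.36, with the other 5 arrays between -0.71 and 0.22. It was not above background on that array. The array had the lowest share of probes above background (28.7%) and the most outlier spots (1467) of the 26. Cfi on high-dose SXC array 1 stood at -6.39, with the others between -2.74 and -1.26, and this array was also 1 of the 4 arrays of treated rats whose hepatocyte mean was inside the saline range. Saline array 8 was lowest of its group for Cfi (-7.77, not above background, others -6.76 to -6.01) and for C3 (-5.05, others -4.22 to -3.74).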

How the results depend on the processing

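C1s, Cfb and Serping1 kept their direction and their calls against saline with each of the 3 treatments under every setting that measured them. Among the 7 members, leaving out 1 array gave 5 to 6 calls for valsartan against saline, 4 to 6 for high-dose SXC against saline, 5 to 6 for low-dose SXC against saline, 2 to 3 for valsartan against low-dose SXC, 0 to 3 for high-dose against low-dose SXC and 0 to 0 for valsartan against high-dose SXC, against 5, 5, 5, 3, 1 and 0 as reported. Testing only probes above background on all 26 arrays measured 3 members, C1r, C1s and Serping1, and not Cfb. Of these 3, 2 were called for valsartan, 3 for high-dose SXC and 2 for low-dose SXC against saline. The shares of all probes called there were 68%, 62.4% and 59.1%. A block for detector gain left 3 for high-dose SXC against saline and gave 1 for valsartan against high-dose SXC (C2, -1.48, adjusted p = 0.0288), as did leaving out high-dose arrays 1 and 2 together. Saline as 3 averages left 3 for low-dose SXC against saline. Scan run as a random block left 0 for valsartan against low-dose SXC. High-dose against low-dose SXC had 0 calls with quantile normalisation, the authors' deposited values and the mean over a gene's probes. Blocks for scan run (random or fixed), scan day, detector gain and replicate number also gave 0. So did probes above background on all arrays, where C2 was not measured. This comparison had 3 calls with normexp, with the 75th percentile taken over averaged probes, and without high-dose arrays 1 and 2. C2 reversed to -0.029 (quantile normalisation), -0.48 (scan day block) and -0.24 (scan run block) for high-dose against low-dose SXC, and to 0.37 (normexp) for valsartan against saline. The cause was not tested for these changes, apart from the fewer probes or arrays named. With the replicate number as a block there were 6 calls for valsartan and for low-dose SXC against saline, where C1r passed at -0.50 (adjusted p = 0.0210) and -0.49 (adjusted p = 0.0361), 5 for high-dose SXC against saline and 3 for valsartan against low-dose SXC. Normexp took C3 past the threshold with valsartan (1.67, adjusted p = 4.84e-04) and high-dose SXC (1.41, adjusted p = 0.00268). Of all single values over the settings other than leaving out 1 array, 482 kept direction and side of the threshold, 22 gained a call, 21 lost one and 4 reversed. The median of all probes against saline was -0.30 with valsartan and -0.23 with high-dose SXC under quantile normalisation, and 0.70 and 0.55 with normexp, beside 0.19 and 0.25 as reported. Over all probes tested, normexp called 14543 for valsartan against low-dose SXC and 10770 for high-dose against low-dose SXC, beside 5972 and 5273 as reported, no filter on dim probes 13259 and 10252, and scan run as a random block 1840 and 1617. Fixed blocks for gain, scan day and scan run called 0, 0 and 11 for high-dose against low-dose SXC, and leaving out high-dose arrays 1 and 2 called 8433. A gain block called 6505 for high-dose SXC against saline, beside 13549, and saline as 3 averages 5709 for low-dose SXC against saline, beside 9408. With only probes above background on all 26 arrays, fewer were tested (7278), and 4946, 4544 and 4302 were called for valsartan, high-dose SXC and low-dose SXC against saline. Valsartan against high-dose SXC had 325 as reported and 4 to 1423 over the other settings. C2, Cfi and C3 are the members that dim signal limits most.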
